A study of Mus musculus with 17 samples.

Results

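Autophagy and lysosome control genes were followed in ribosome-bound RNA of the mouse mediobasal hypothalamus, enriched for POMC neurons, in offspring of dams fed a high-fat diet (HFD) or chow. The genes were a list of 40 symbols covering the autophagosome machinery, its cargo receptors, the Tfeb and Tfe3 transcription factors and the lysosome. Of these, 39 were found by exact symbol among the 15355 genes of the deposited table, and Atg101 was not. All 39 passed the filter on low values in every comparison.

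POMC neurons are appetite-suppressing cells of the arcuate nucleus that make pro-opiomelanocortin. RiboTag mice carry a ribosomal protein with an HA tag that is switched on where the Pomc driver is or has been active, so other cells with a history of Pomc expression may be tagged as well. The 4 groups were offspring of HFD-fed dams at postnatal day 21 (HFD P21, 4 libraries), offspring of chow-fed dams at day 21 (chow P21, 3 libraries), offspring of HFD-fed dams at day 0 (HFD P0, 5 libraries) and offspring of chow-fed dams at day 0 (chow P0, 5 libraries). All dams were POMC-RiboTag females. The high-fat diet was a 45% HFD. Dams ate their diet for 4 weeks before mating and then until the pups were weaned. The labels name no sex, litter, pool or library batch, so p-values measure the spread between these libraries, part of which may be technical.

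In autophagy a membrane sac closes around cytoplasm, protein aggregates or organelles and delivers them to the lysosome, where hydrolases break the cargo down. A kinase complex around Ulk1 and Ulk2 starts the sac, a lipid kinase complex around Pik3c3 and Becn1 marks it, and ubiquitin-like conjugation attaches Atg8-family proteins such as LC3 and the GABARAPs to its membrane. Nerve cells depend on this turnover because they do not divide, and deletion of Atg7 in POMC neurons of mice is known to raise body weight and fat.

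Levels are in scaled units close to CPM. Each change is a log2 difference taken after adding 1 to the level, which understates changes of low genes. The depth was 22.4 to 37.1 M reads (M, mega) per library. Pomc measured 7460.1 to 9818 units in HFD P21, 3878 to 12070 in chow P21, 90.7 to 1057 in HFD P0 and 146 to 1308 in chow P0 libraries. A gene passed when its adjusted p in limma, over all genes tested, was under 0.05. Markers of other cells were present throughout, and 3 libraries stood apart from the rest of their groups. HFD P0 replicate 5 held 1057 units of Pomc where the other HFD P0 libraries held at most 246. Chow P0 replicate 3 held a summed 1070 units of 14 oligodendrocyte markers where the other chow P0 libraries held at most 517. Chow P21 replicate 3 held the most Pomc and, at 18889 units, the most oligodendrocyte signal of all 17 libraries.

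The promoters of 5 genes are shown because TFEB and TFE3 are known to bind E-box sites with the letters CACGTG in lysosomal promoters. Each window is 300 bases of RefSeq sequence on GRCm38.p6, from 250 bases before the annotated start to 50 after it, read 5′ to 3′ on the gene's own strand. Capitals mark CACGTG, which reads the same on both strands. The windows are Ctsd at chr7:142387778-142388077 on the minus strand, Lamp1 at chr8:13158911-13159210 on the plus strand, Atg3 at chr16:45158579-45158878 on the plus strand, Gabarapl1 at chr6:129532942-129533241 on the plus strand and Sqstm1 at chr11:50210771-50211070 on the minus strand.
Ctsd: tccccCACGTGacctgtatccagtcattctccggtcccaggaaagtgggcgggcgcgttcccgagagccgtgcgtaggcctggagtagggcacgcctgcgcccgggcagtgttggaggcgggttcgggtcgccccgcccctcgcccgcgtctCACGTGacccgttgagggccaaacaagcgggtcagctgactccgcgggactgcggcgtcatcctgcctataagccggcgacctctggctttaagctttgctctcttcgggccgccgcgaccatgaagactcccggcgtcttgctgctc
Lamp1: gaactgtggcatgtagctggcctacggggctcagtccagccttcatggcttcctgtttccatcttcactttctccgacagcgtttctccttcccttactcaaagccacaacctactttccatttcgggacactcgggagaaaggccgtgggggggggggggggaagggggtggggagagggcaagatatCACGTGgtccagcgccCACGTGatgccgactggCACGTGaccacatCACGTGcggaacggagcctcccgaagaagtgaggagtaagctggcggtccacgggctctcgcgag
Atg3: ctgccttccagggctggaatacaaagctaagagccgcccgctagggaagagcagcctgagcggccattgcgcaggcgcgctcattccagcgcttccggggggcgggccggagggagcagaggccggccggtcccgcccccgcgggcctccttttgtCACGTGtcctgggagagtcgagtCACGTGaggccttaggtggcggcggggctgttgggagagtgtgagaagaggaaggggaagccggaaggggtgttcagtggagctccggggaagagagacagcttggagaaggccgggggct
Gabarapl1: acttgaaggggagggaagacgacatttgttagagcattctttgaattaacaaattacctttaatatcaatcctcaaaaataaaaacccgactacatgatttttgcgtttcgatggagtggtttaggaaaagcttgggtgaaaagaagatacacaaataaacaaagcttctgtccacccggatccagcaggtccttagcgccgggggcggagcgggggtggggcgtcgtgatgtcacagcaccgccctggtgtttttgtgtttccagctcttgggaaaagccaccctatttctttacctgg
Sqstm1: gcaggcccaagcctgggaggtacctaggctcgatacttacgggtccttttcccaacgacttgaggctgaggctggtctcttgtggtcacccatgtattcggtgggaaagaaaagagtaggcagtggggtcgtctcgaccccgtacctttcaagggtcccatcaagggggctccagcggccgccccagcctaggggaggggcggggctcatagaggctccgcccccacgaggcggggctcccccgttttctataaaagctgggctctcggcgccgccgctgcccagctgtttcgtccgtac

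Lamp1 held 4 matches, which began 61, 45, 28 and 15 bases before the start. Ctsd held 2 matches, at 245 and 98 bases before its start, and Atg3 held 2, at 94 and 71 bases. Gabarapl1 and Sqstm1 had none of these letters in their windows. At least 1 window was at hand for 32 of the 39 genes, some of which have several starts. Atg12, Atg16l1, Becn1, Ctsb, Map1lc3a, Pik3c3 and Rb1cc1 had no window and were not examined. Of the 32 genes, 7 (21.9%) held CACGTG, namely Atg3, Atg5, Atg7, Atg14, Ctsd, Ctsl and Lamp1. The letters were found for 11.2% of the 11263 genes of the table with a window, 8.09% of all 27025 genes with a window and 7.15% of all 32851 windows. The longer form TCACGTG on either strand, which contains the core, was found for 5 of the 32 genes (15.6%), Atg3, Atg7, Atg14, Ctsd and Lamp1. It was found for 6.53% of the genes of the table with a window, 4.29% of all genes with a window and 3.77% of all windows. The match is a description of letters in a window and was not tested.

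The comparison of P21 with P0 shows how the genes differed between weaning and birth, separately under each maternal diet. In HFD offspring 16 of the 39 genes rose and 1 fell, beside 24.7% of 14245 genes higher and 26.2% lower. In chow offspring 16 rose and 2 fell, beside 18.3% of 14549 genes higher and 17.7% lower. The P21 and P0 libraries did not overlap for 12 genes higher and 0 lower at P21 in HFD offspring, beside 19% and 19.7% of all genes. In chow offspring they did not overlap for 15 genes higher and 2 lower, beside 19.3% and 17.9%. As shares of the 39 genes, 41.03% rose under each diet, while 2.56% fell in HFD and 5.13% in chow offspring. The median change of the 39 genes was a log2 difference of 0.47 in HFD and 0.49 in chow offspring, beside -0.05 and -0.01 over all genes tested. The rises under both diets were those of Gabarapl1 and Gabarapl2 of the Atg8 family, the cargo receptor Sqstm1, the transcription factor gene Tfe3, the cathepsins, and Atg13, Becn1, Wipi2, Atg10 and Atg4c of the autophagosome machinery, and the only fall under both diets was that of Ulk2.

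These 2 comparisons share no library. In both, Atg10, Atg13, Atg4c, Becn1, Ctsb, Ctsd, Ctsl, Gabarapl1, Gabarapl2, Sqstm1, Tfe3 and Wipi2 rose and Ulk2 fell. Those 13 genes are 76.5% of the 17 genes that passed in HFD and 72.2% of the 18 that passed in chow offspring. Over all genes, the shared calls were 57% of the HFD list and 79.2% of the chow list. The sign was the same in both diets for 33 of the 39 genes, beside 80.3% of all genes, and 17 genes passed in neither.

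**Figure D1:**
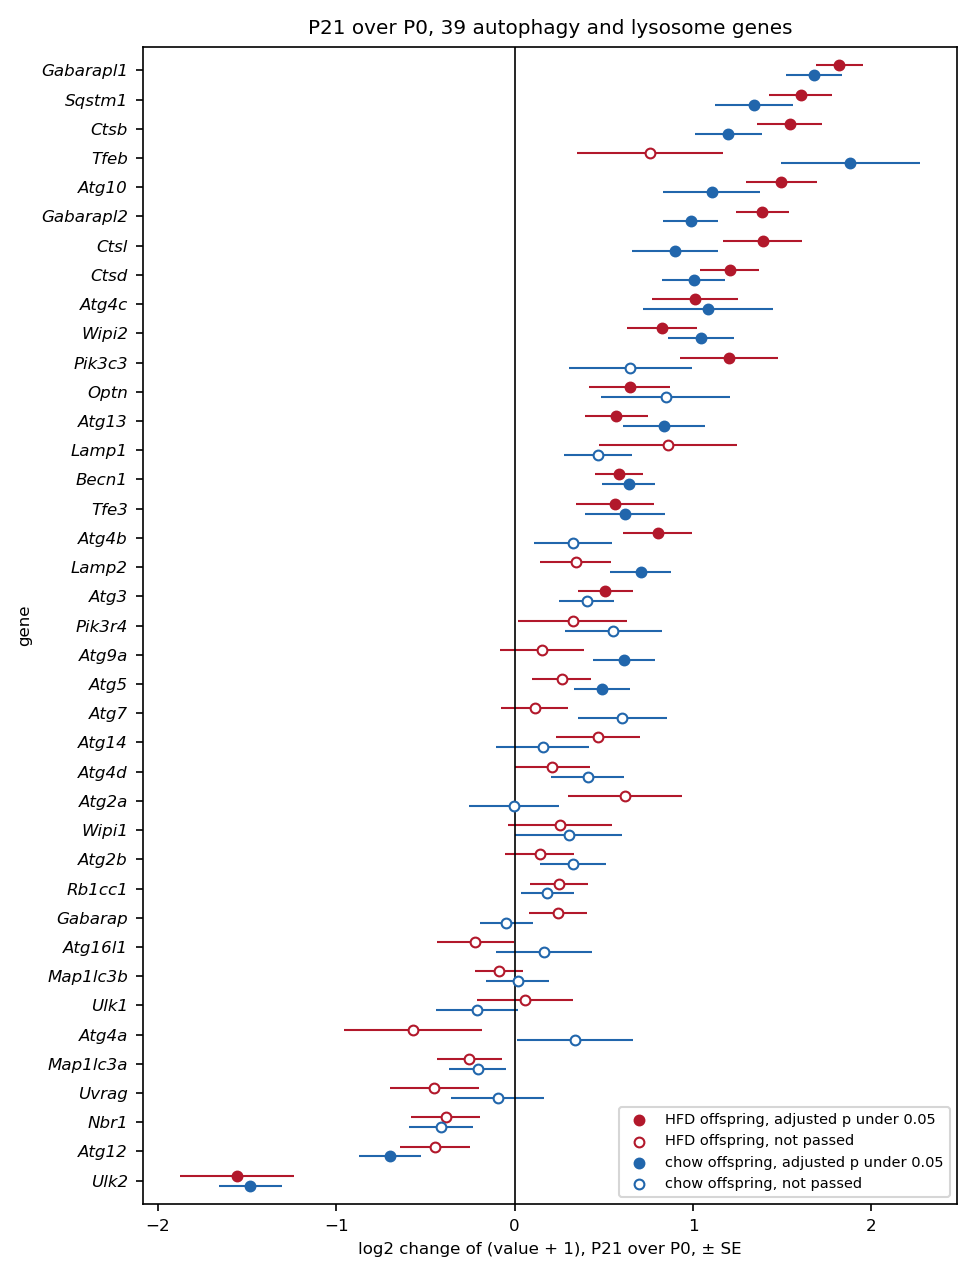
Log2 change of value + 1 between P21 and P0 (P21 over P0) for each of the 39 genes, with bars of ± 1 SE; red points are HFD offspring, blue points chow offspring, and filled points passed limma's test at an adjusted p of 0.05. Gabarapl1 stands at the right under both diets (1.82 in HFD, 1.68 in chow), and Ulk2 alone stands far to the left (-1.56 in HFD, -1.48 in chow).

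The Atg8 family split. Gabarapl1 (chr6:129533160-129542346, + strand) and Gabarapl2 (chr8:111940703-111953612, + strand), which act late in autophagosome maturation and bind cargo receptors, rose under both diets, while Gabarap, Map1lc3a and Map1lc3b did not pass in either. Gabarapl1 measured 1089.97, 1060.2, 1009 and 1033 units at P21, against 281, 304, 269, 294 and 336 units at P0 in HFD offspring. In chow offspring Gabarapl1 measured 1069.8, 1019 and 907 units at P21, against 276, 268, 331, 343 and 344 units at P0. Every P21 library lay far above every P0 library under both diets. The log2 difference of Gabarapl1 was 1.82 ± 0.13 (SE, adjusted p = 1.93e-07) in HFD and 1.68 ± 0.16 (SE, adjusted p = 6.56e-06) in chow offspring. Of its exonic bases 28.3% are shared with 1700101I11Rik on the opposite strand, and the strand setting of the counting is not given in the sources used here.

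Gabarapl2 measured 760.5, 571, 795 and 629 units at P21, against 261, 258, 284, 225 and 278 units at P0 in HFD offspring. Chow offspring had 639, 577 and 614 units at P21, against 283, 257, 298, 355 and 354 units at P0 for the same gene. The ages did not overlap under either diet, and the HFD P21 libraries were more spread than the chow P21 ones. The log2 difference of Gabarapl2 was 1.39 ± 0.15 (SE, adjusted p = 5.19e-06) in HFD and 0.99 ± 0.16 (SE, adjusted p = 3.48e-04) in chow offspring. Gabarap had a log2 difference of 0.24 ± 0.16 (SE, adjusted p = 0.221) in HFD and -0.046 ± 0.15 (SE, adjusted p = 0.837) in chow offspring, and its ages overlapped under both diets. Map1lc3a and Map1lc3b encode LC3A and LC3B, the LC3 proteins most used as markers of autophagosomes. Their log2 differences were -0.25 and -0.085 in HFD, and -0.21 and 0.017 in chow offspring. Without HFD P0 replicate 5, the fall of Map1lc3a in HFD offspring passed, at -0.39 (adjusted p = 0.0148).

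**Figure D2:**
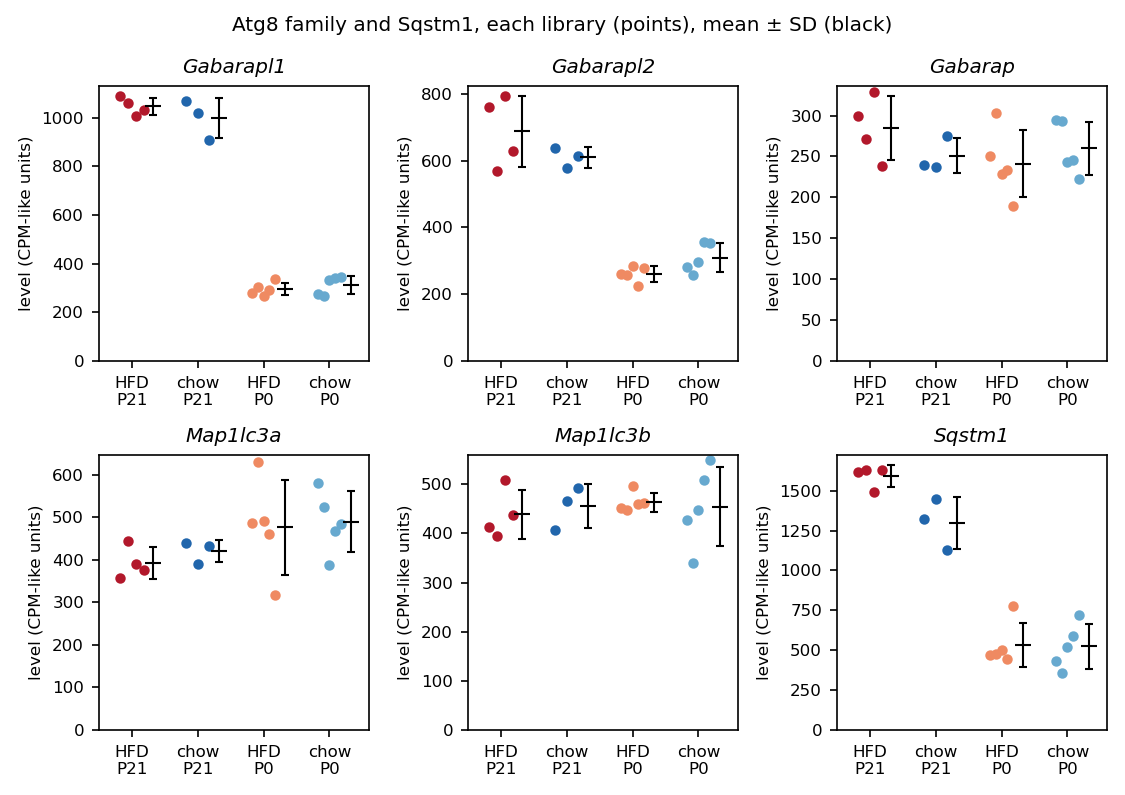
Level in scaled CPM-like units of the 5 Atg8-family genes and Sqstm1 in each library, by group, with the mean ± SD in black. For Gabarapl1, Gabarapl2 and Sqstm1 every P21 point lies above every P0 point, and for Gabarap, Map1lc3a and Map1lc3b the ages overlap.

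Per kilobase of exon the order of the family differed between ages. At P21 Gabarapl1 led, with 521 ± 17.4 units per kb in HFD (SD, n = 4) and 496 ± 41.3 in chow offspring (SD, n = 3), ahead of Map1lc3a with 332 ± 31.8 in HFD and 356 ± 22.5 in chow. At P0 Map1lc3a led, with 404 ± 94.6 units per kb in HFD and 414 ± 60.7 in chow offspring (SD, n = 5 each), ahead of Gabarapl1 with 147 ± 12.8 in HFD and 155 ± 18.5 in chow. The 2 genes did not overlap within either age, whether by diet or over both diets. Gabarapl2 came next at P21, with 296 ± 45.8 units per kb in HFD and 262 ± 13.4 in chow offspring, and it overlapped Map1lc3a in HFD and not in chow offspring. At P0 Gabarapl2 ranged over 96.6 to 122 units per kb in HFD and 111 to 153 in chow offspring, which overlapped Gabarap under both diets and Gabarapl1 in chow offspring. Map1lc3b was the lowest of the 5 per kb in all 4 groups, at group means of 58.4 to 61.7 units per kb. The length is that of all annotated exons of a gene, so a gene with a long, little used exon reads low on this scale.

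The cargo receptors tie ubiquitin-marked cargo to Atg8 proteins. Sqstm1 (chr11:50199366-50210827, - strand), which encodes p62, measured 1618, 1629, 1489 and 1628 units at P21, against 471, 475, 500.3, 446 and 779 units at P0 in HFD offspring. In chow offspring Sqstm1 measured 1321, 1449.9 and 1127 units at P21, against 433, 360.1, 518, 586 and 723 units at P0. The lowest P21 library of either diet was above the highest P0 library. Sqstm1 rose by a log2 difference of 1.605 ± 0.18 (SE, adjusted p = 6.29e-06) in HFD and 1.34 ± 0.22 (SE, adjusted p = 4.37e-04) in chow offspring, and 17.3% of its exonic bases are shared with Mrnip on the opposite strand. Optn encodes optineurin, a receptor for mitochondria and bacteria. It measured 46.5, 43.3, 67.1 and 62.1 units at P21, against 25.5, 33.5, 32.9, 29.9 and 54.2 units at P0 in HFD offspring, and 47.5, 56.2 and 43.3 units at P21, against 16.02, 13.7, 42.2, 29.2 and 48.6 units at P0 in chow offspring. The ages overlapped under both diets through HFD P0 replicate 5 and chow P0 replicate 5. Optn rose in HFD offspring, at 0.64 ± 0.23 (SE, adjusted p = 0.0278), and did not pass in chow offspring, at 0.85 ± 0.36 (SE, adjusted p = 0.0848). The HFD call was lost in 5 of 9 fits that left out 1 library, those without HFD P0 replicates 1, 3 or 4 and HFD P21 replicates 3 or 4, with log2 differences of 0.54 to 0.81 over the 9 fits. It was also lost with columns rescaled to equal sums, at 0.47 (adjusted p = 0.0756), and with all 4 groups in 1 fit, at 0.645 (adjusted p = 0.0793). In chow offspring Optn passed without chow P0 replicate 5, at 1.06 (adjusted p = 0.0261). Nbr1, a receptor related to p62, had -0.39 ± 0.19 (SE, adjusted p = 0.109) in HFD and -0.41 ± 0.18 (SE, adjusted p = 0.0941) in chow offspring, and it passed in HFD without HFD P0 replicate 3, at -0.49 (adjusted p = 0.04997), and with equal sums, at -0.56 (adjusted p = 0.0209).

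The 3 cathepsins, proteases of the lysosome lumen, rose together under both diets. Ctsb (chr14:63122462-63145923, + strand), a cysteine protease, measured 1349.6, 1202, 1346 and 1296 units at P21, against 402, 355, 434, 414 and 676 units at P0 in HFD offspring. Chow offspring had 1080.3, 1125 and 1150.1 units at P21, against 424, 359, 546, 533 and 614 units at P0 of Ctsb. No P0 library came near the P21 libraries of its diet. Ctsb rose by 1.54 ± 0.18 (SE, adjusted p = 1.16e-05) in HFD and 1.199 ± 0.19 (SE, adjusted p = 3.46e-04) in chow offspring. Ctsd (chr7:142375911-142388038, - strand), the aspartic protease whose promoter is printed above, measured 773, 719, 783 and 718 units at P21, against 269.9, 284, 307, 327 and 459.7 units at P0 in HFD offspring. In chow offspring Ctsd measured 651, 688 and 663 units at P21, against 305, 248.6, 409, 342 and 382 units at P0. The ages were apart under both diets, with log2 differences of 1.21 ± 0.16 (SE, adjusted p = 4.37e-05) in HFD and 1.004 ± 0.18 (SE, adjusted p = 7.14e-04) in chow offspring. Ctsl (chr13:64359337-64370890, - strand), a further cysteine protease, measured 430.1, 334, 427 and 354 units at P21, against 121, 124, 157, 108 and 258 units at P0 in HFD offspring. For chow offspring the values of Ctsl were 329, 358 and 274 units at P21, against 127, 112, 194, 206 and 252 units at P0. HFD P0 replicate 5 and chow P0 replicate 5 came closest to P21, yet the ages did not overlap within a diet. Ctsl rose by 1.39 ± 0.22 (SE, adjusted p = 1.65e-04) in HFD and 0.898 ± 0.24 (SE, adjusted p = 0.0113) in chow offspring, and the chow call was lost without chow P21 replicate 2, at 0.81 (adjusted p = 0.0568). Shared exonic bases came to 34.4% for Ctsd, with an unnamed same-strand model, 26.9% for Ctsl and 12.8% for Ctsb, both on the opposite strand.

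Lamp1 and Lamp2, the main glycoproteins of the lysosomal membrane, were less uniform. Lamp1 measured 183, 611, 657 and 678 units at P21, against 297, 302, 360.2, 319.6 and 115 units at P0 in HFD offspring. In chow offspring Lamp1 measured 743, 722 and 554 units at P21, against 418, 379.8, 479.9, 579 and 596 units at P0. HFD P21 replicate 1 and HFD P0 replicate 5 lay far below the other libraries of their groups. The ages overlapped in HFD offspring through HFD P21 replicate 1 alone. Chow P21 replicate 3 likewise lay below the 2 highest chow P0 libraries. Lamp1 did not pass, at 0.86 ± 0.39 (SE, adjusted p = 0.07797) in HFD and 0.47 ± 0.19 (SE, adjusted p = 0.07403) in chow offspring. It passed in HFD without HFD P21 replicate 1, at 1.31 (adjusted p = 0.00318), and in chow without chow P0 replicate 5, at 0.54 (adjusted p = 0.0356). With all 4 groups in 1 fit it passed in HFD, at 0.86 (adjusted p = 0.0385). Lamp2, one form of which takes proteins directly across the lysosomal membrane, measured 71.5, 60.6, 96.7 and 64.3 units at P21, against 46.4, 57.04, 61.5, 46.1 and 77.4 units at P0 in HFD offspring. In chow offspring Lamp2 measured 78.6, 94.9 and 87.5 units at P21, against 41.4, 49.01, 53.9, 60.9 and 61.3 units at P0. The ages overlapped in HFD and not in chow offspring. Lamp2 rose in chow offspring, at 0.71 ± 0.17 (SE, adjusted p = 0.00577), and did not pass in HFD offspring, at 0.34 ± 0.197 (SE, adjusted p = 0.161), where it passed without HFD P0 replicate 5, at 0.45 (adjusted p = 0.0386).

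**Figure D3:**
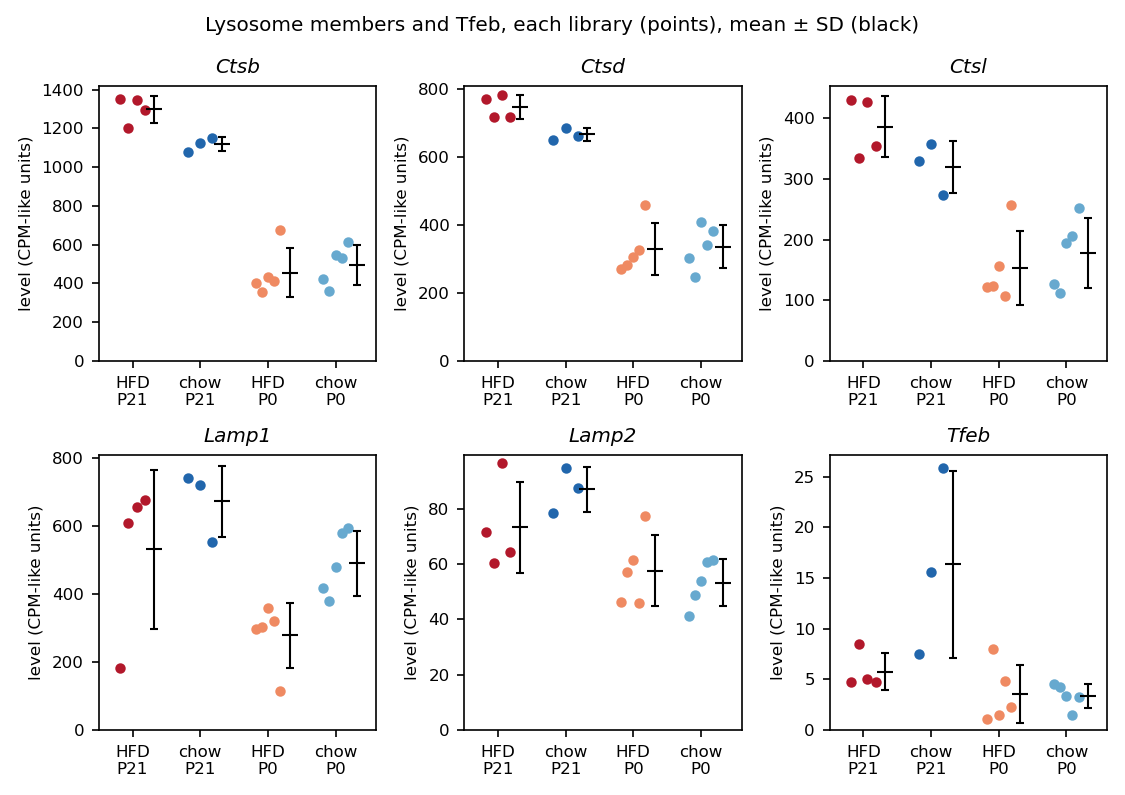
Level in scaled CPM-like units of 3 cathepsins, 2 lysosomal membrane genes and Tfeb in each library, by group, with the mean ± SD in black. Ctsb, Ctsd and Ctsl are higher in every P21 library than in any P0 library, Lamp1 has single low libraries in HFD P21 and HFD P0, and Tfeb is spread widely in chow P21, between 7.53 and 25.9 units.

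Tfeb and Tfe3 encode basic helix-loop-helix factors that enter the nucleus when the nutrient-sensing kinase complex mTORC1 is inactive and switch on lysosomal genes. Tfeb was among the least abundant of the 39 genes. It measured 4.74, 8.49, 5.05 and 4.72 units at P21, against 1.09, 8.01, 1.49, 4.84 and 2.28 units at P0 in HFD offspring. In chow offspring Tfeb measured 7.53, 15.6 and 25.9 units at P21, against 4.58, 4.24, 3.39, 1.51 and 3.24 units at P0. All chow P21 libraries were above all chow P0 libraries, and they differed widely among themselves, whereas the ages overlapped in HFD offspring. Tfeb rose in chow offspring, at 1.88 ± 0.39 (SE, adjusted p = 0.00236), and did not pass in HFD offspring, at 0.76 ± 0.41 (SE, adjusted p = 0.135), except without HFD P0 replicate 2, at 1.06 (adjusted p = 0.0263). The difference between the diets in this age change was -1.12 ± 0.599 (SE, adjusted p = 0.38) and did not pass. In the 3 chow P21 libraries the 14 oligodendrocyte markers summed to 8443, 12433 and 18889 units, in the same order as Tfeb. Sums of microglia, astrocyte, endothelial and mural, choroid plexus and ependymal, erythroid and general neuron markers had that order too. Those of fibroblast, POMC-neuron, immature-neuron and anterior pituitary markers did not. In HFD P21 replicates 1 to 4 the oligodendrocyte sum was 4350.6, 6799, 7580 and 4109 units. There Tfeb and this sum had the same order except that replicates 2 and 3 changed places, with Tfeb highest in replicate 2. The part of these cells in the result was not tested. Tfe3 measured 49, 50.5, 30.6 and 52.9 units at P21, against 27.2, 25.2, 27.95, 28.9 and 44 units at P0 in HFD offspring. In chow offspring Tfe3 measured 45.7, 36.8 and 43.3 units at P21, against 21.3, 28.7, 29.4, 38.3 and 20.1 units at P0. The ages overlapped under both diets. Tfe3 rose by 0.56 ± 0.22 (SE, adjusted p = 0.0454) in HFD and 0.62 ± 0.22 (SE, adjusted p = 0.0449) in chow offspring, close to the threshold. Leaving out 1 library ended the HFD call in 7 of 9 fits, all but those without HFD P0 replicate 5 and HFD P21 replicate 3, with log2 differences of 0.48 to 0.74. It ended the chow call in 6 of 8 fits, all but those without chow P0 replicates 2 and 4, with 0.52 to 0.74. Leaving out the libraries that stood apart ended the chow call as well, at 0.63 (adjusted p = 0.142), and columns rescaled to equal sums ended both, at 0.39 in HFD (adjusted p = 0.145) and 0.55 in chow (adjusted p = 0.0801).

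In the initiation complex the sister kinase Ulk2 fell, and Ulk1, the kinase that mTORC1 holds in check, did not pass. Ulk2 (chr11:61775649-61855073, - strand) measured 23.99, 57.97, 38.2 and 67.8 units at P21, against 148, 149.9, 187, 143 and 63.3 units at P0 in HFD offspring. In chow offspring Ulk2 measured 66.9, 54.5 and 48.3 units at P21, against 148, 184, 163, 184 and 122 units at P0. All chow P21 libraries were below all chow P0 libraries, and in HFD offspring P0 replicate 5 fell within the range of P21. The log2 difference of Ulk2 was -1.56 ± 0.32 (SE, adjusted p = 0.00117) in HFD and -1.48 ± 0.17 (SE, adjusted p = 4.07e-05) in chow offspring. Ulk1 had 0.058 ± 0.27 (SE, adjusted p = 0.872) in HFD and -0.21 ± 0.23 (SE, adjusted p = 0.50) in chow offspring. Per kilobase of exon Ulk2 averaged 7.86 ± 3.29 in HFD P21 and 9.47 ± 1.59 in chow P21, and Ulk1 8.32 ± 3.51 in HFD P21 and 8.83 ± 1.46 in chow P21 (SD, n = 4 HFD and 3 chow). At P0 Ulk2 averaged 23.1 ± 7.601 units per kb in HFD and 26.8 ± 4.35 in chow, and Ulk1 7.61 ± 1.602 in HFD and 10.5 ± 3.07 in chow (SD, n = 5 each). The 2 kinases therefore overlapped at P21, where neither stood above the other beyond its spread, and Ulk2 was above Ulk1 in every P0 library.

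Atg13, the partner that links the Ulk kinases to the scaffold, measured 99.5, 89.96, 86.6 and 119.8 units at P21, against 54.7, 65.1, 60.8, 63.1 and 90.1 units at P0 in HFD offspring. In chow offspring Atg13 measured 118, 113 and 73.9 units at P21, against 48.4, 38.04, 54.4, 68.7 and 73.8 units at P0. The ages overlapped in HFD offspring through P0 replicate 5 and were just apart in chow offspring. Atg13 rose by 0.57 ± 0.17 (SE, adjusted p = 0.0142) in HFD and 0.84 ± 0.23 (SE, adjusted p = 0.0124) in chow offspring. Its HFD call was lost without HFD P21 replicate 4, at 0.48 (adjusted p = 0.0555), and with equal sums, at 0.397 (adjusted p = 0.057). The call was lost in chow without P21 replicate 1, at 0.72 (adjusted p = 0.0637), or replicate 2, at 0.75 (adjusted p = 0.0638). Rb1cc1, which encodes the scaffold FIP200, had 0.25 ± 0.16 (SE, adjusted p = 0.216) in HFD and 0.18 ± 0.15 (SE, adjusted p = 0.367) in chow offspring.

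The class III PI3-kinase complex makes the lipid PI3P on the growing membrane. Becn1 (chr11:101285952-101302286, - strand), its regulatory subunit beclin 1, measured 149, 133, 129 and 141 units at P21, against 84.8, 90.8, 88.9, 96.4 and 97.7 units at P0 in HFD offspring. In chow offspring Becn1 measured 120.3, 122 and 129 units at P21, against 66.2, 73.03, 83.4, 90.2 and 84.2 units at P0. The spread within each group was small and the ages were apart under both diets. Becn1 rose by 0.58 ± 0.13 (SE, adjusted p = 0.00229) in HFD and 0.64 ± 0.15 (SE, adjusted p = 0.00456) in chow offspring. The annotation puts 43.9% of its exonic bases under Cntd1 on the opposite strand. Pik3c3, the catalytic subunit, measured 54.1, 43.6, 61.9 and 67.6 units at P21, against 23.8, 12.5, 27.1, 22.9 and 40.8 units at P0 in HFD offspring. In chow offspring Pik3c3 measured 33.8, 36.7 and 38.7 units at P21, against 15.2, 10.9, 32.8, 35.1 and 31.8 units at P0. The HFD ages were apart, whereas the lowest chow P21 library lay below the highest chow P0 library. Pik3c3 rose in HFD offspring, at 1.202 ± 0.27 (SE, adjusted p = 0.00233), and did not pass in chow offspring, at 0.65 ± 0.34 (SE, adjusted p = 0.162). Its diet by age difference was 0.55 ± 0.47 (SE, adjusted p = 0.588). The remaining subunits did not pass under either diet. Pik3r4, the VPS15 pseudokinase, had 0.33 in HFD and 0.55 in chow offspring. Atg14, which brings the complex to the autophagosome, had 0.47 in HFD and 0.16 in chow offspring. Uvrag, its counterpart on endosomes, had -0.45 in HFD and -0.095 in chow offspring. Single libraries decided 2 of these, since Pik3r4 passed in chow without P0 replicate 5, at 0.73 (adjusted p = 0.0317), and Atg14 in HFD without P0 replicate 5, at 0.63 (adjusted p = 0.0149).

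Among Atg9a, the lipid transfer genes and the readers of PI3P, Wipi2 rose under both diets. Wipi2 binds PI3P and recruits Atg16l1. It measured 141, 146, 114 and 192 units at P21, against 68.6, 81.3, 63.6, 90.99 and 113 units at P0 in HFD offspring, and 143, 168 and 148 units at P21, against 65.6, 54.1, 84.3, 94.8 and 74.9 units at P0 in chow offspring. HFD P21 replicate 3 was only just above HFD P0 replicate 5, and in chow offspring the gap was wide. The log2 difference of Wipi2 was 0.83 ± 0.196 (SE, adjusted p = 0.003095) in HFD and 1.05 ± 0.18 (SE, adjusted p = 7.36e-04) in chow offspring. Atg9a, a lipid scramblase carried on vesicles, measured 127, 144, 82.6 and 162 units at P21, against 107, 87.3, 87, 123 and 179 units at P0 in HFD offspring. In chow offspring Atg9a measured 139, 167 and 158 units at P21, against 75.1, 94.5, 101, 123 and 116 units at P0. HFD P0 replicate 5 was the highest of all HFD libraries, and the chow ages did not overlap. Atg9a rose in chow offspring, at 0.61 ± 0.17 (SE, adjusted p = 0.0146), and did not pass in HFD offspring, at 0.15 ± 0.24 (SE, adjusted p = 0.606). The chow call was lost without chow P21 replicate 2, at 0.56 (adjusted p = 0.07202), and without the libraries that stood apart, at 0.59 (adjusted p = 0.0812). Of its exonic bases 32.6% are shared with an unnamed same-strand model. The lipid transfer genes Atg2a and Atg2b and the PI3P reader Wipi1 did not pass. Atg2a had 0.62 in HFD and -0.002 in chow offspring, and it passed in HFD without P0 replicate 5, at 0.85 (adjusted p = 0.0159).

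The conjugation machinery moved in both directions. Atg7 is the E1-like enzyme that activates Atg12 and the Atg8 proteins, Atg10 hands Atg12 to Atg5, and Atg3 hands Atg8 proteins to lipid. Atg10 (chr13:90935356-91223968, - strand) measured 33.04, 27.4, 30.9 and 28.8 units at P21, against 10.1, 9.32, 10.8, 8.97 and 10.9 units at P0 in HFD offspring. In chow offspring Atg10 measured 33.2, 30.8 and 22.9 units at P21, against 11.4, 18.9, 8.06, 14.7 and 13.1 units at P0. The ages were apart under both diets, with almost no spread at HFD P0. Atg10 rose by 1.496 ± 0.198 (SE, adjusted p = 3.29e-05) in HFD and 1.104 ± 0.27 (SE, adjusted p = 0.00645) in chow offspring. Atg12, the ubiquitin-like protein itself, measured 105, 84.9, 145 and 101 units at P21, against 145, 115, 158, 122 and 204 units at P0 in HFD offspring. In chow offspring Atg12 measured 115, 102 and 134 units at P21, against 164, 159, 180.01, 209 and 248 units at P0. All chow P21 libraries were below all chow P0 libraries, and the HFD ages overlapped. Atg12 fell in chow offspring, at -0.7004 ± 0.17 (SE, adjusted p = 0.00706), and did not pass in HFD offspring, at -0.45 ± 0.197 (SE, adjusted p = 0.0726). It passed in HFD without P0 replicate 2, at -0.53 (adjusted p = 0.0437), and without P21 replicate 3, at -0.59 (adjusted p = 0.0264). The HFD fall passed too with all 4 groups in 1 fit, at -0.45 (adjusted p = 0.0485), and with equal sums, at -0.62 (adjusted p = 0.012).

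Atg3 (chr16:45158785-45188538, + strand) measured 87.6, 85.2, 71.1 and 89.2 units at P21, against 62.8, 50.3, 62.7, 51.2 and 64.5 units at P0 in HFD offspring. In chow offspring Atg3 measured 79.95, 78.9 and 93.98 units at P21, against 67.2, 52.01, 63.1, 65.3 and 70.4 units at P0. The ages did not overlap under either diet. Atg3 rose in HFD offspring, at 0.51 ± 0.16 (SE, adjusted p = 0.0137), and did not pass in chow offspring, at 0.403 ± 0.15 (SE, adjusted p = 0.0574). The HFD call was lost with columns rescaled to equal sums, at 0.34 (adjusted p = 0.0804), and in chow offspring Atg3 passed with all 4 groups in 1 fit, at 0.403 (adjusted p = 0.0418). Atg5, the acceptor of Atg12, measured 63.4, 61.9, 64.4 and 56.1 units at P21, against 63.1, 50.5, 54.9, 39.8 and 49.1 units at P0 in HFD offspring. In chow offspring Atg5 measured 64.1, 71.5 and 59.7 units at P21, against 52.4, 40.6, 41.6, 46.7 and 49.5 units at P0. The chow ages were apart and the HFD ages overlapped. Atg5 rose in chow offspring, at 0.49 ± 0.16 (SE, adjusted p = 0.0279), and did not pass in HFD offspring, at 0.26 ± 0.17 (SE, adjusted p = 0.197). The chow call was lost without chow P0 replicate 3, chow P21 replicate 1 or chow P21 replicate 2, with log2 differences of 0.42 to 0.55 over the 8 fits and adjusted p of at most 0.133. Leaving out the libraries that stood apart also ended it, at 0.51 (adjusted p = 0.0807), as did equal sums, at 0.42 (adjusted p = 0.0521). Atg7 did not pass, at 0.11 ± 0.19 (SE, adjusted p = 0.642) in HFD and 0.603 ± 0.25 (SE, adjusted p = 0.0769) in chow offspring, where it passed without chow P0 replicate 5, at 0.73 (adjusted p = 0.0351), and with all 4 groups in 1 fit, at 0.603 (adjusted p = 0.0404). Atg16l1, which places the conjugate on the membrane, had -0.22 in HFD and 0.16 in chow offspring and did not pass.

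The Atg4 proteases trim newly made Atg8 proteins and release them from membranes. Atg4c measured 31.4, 20.3, 26.6 and 22.9 units at P21, against 13.8, 11.9, 10.5, 8.33 and 16.4 units at P0 in HFD offspring. In chow offspring Atg4c measured 14.5, 25.8 and 29.2 units at P21, against 5.98, 5.57, 16.1, 13.2 and 13.1 units at P0. The HFD ages were apart, and in chow offspring P21 replicate 1 lay within the range of P0. Atg4c rose by 1.01 ± 0.24 (SE, adjusted p = 0.003103) in HFD and 1.08 ± 0.37 (SE, adjusted p = 0.0342) in chow offspring. The chow call was lost in 4 of 8 fits, those without chow P0 replicates 1 or 2 and chow P21 replicates 2 or 3, with log2 differences of 0.895 to 1.38, and also without the libraries that stood apart, at 1.06 (adjusted p = 0.0961). Atg4b, the main protease of the family in mammals, measured 159, 142, 129 and 163 units at P21, against 76.5, 77.8, 75.4, 68.97 and 136 units at P0 in HFD offspring. In chow offspring Atg4b measured 94.9, 109.9 and 131 units at P21, against 63.3, 67.1, 108, 113 and 103 units at P0. HFD P0 replicate 5 lay within the HFD P21 range, and the chow ages overlapped. Atg4b rose in HFD offspring, at 0.803 ± 0.19 (SE, adjusted p = 0.003502), and did not pass in chow offspring, at 0.33 ± 0.22 (SE, adjusted p = 0.262). Atg4a, at no more than 8.89 units in any library, and Atg4d did not pass under either diet. Their log2 differences were -0.57 and 0.21 in HFD, and 0.34 and 0.41 in chow offspring.

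**Figure D4:**
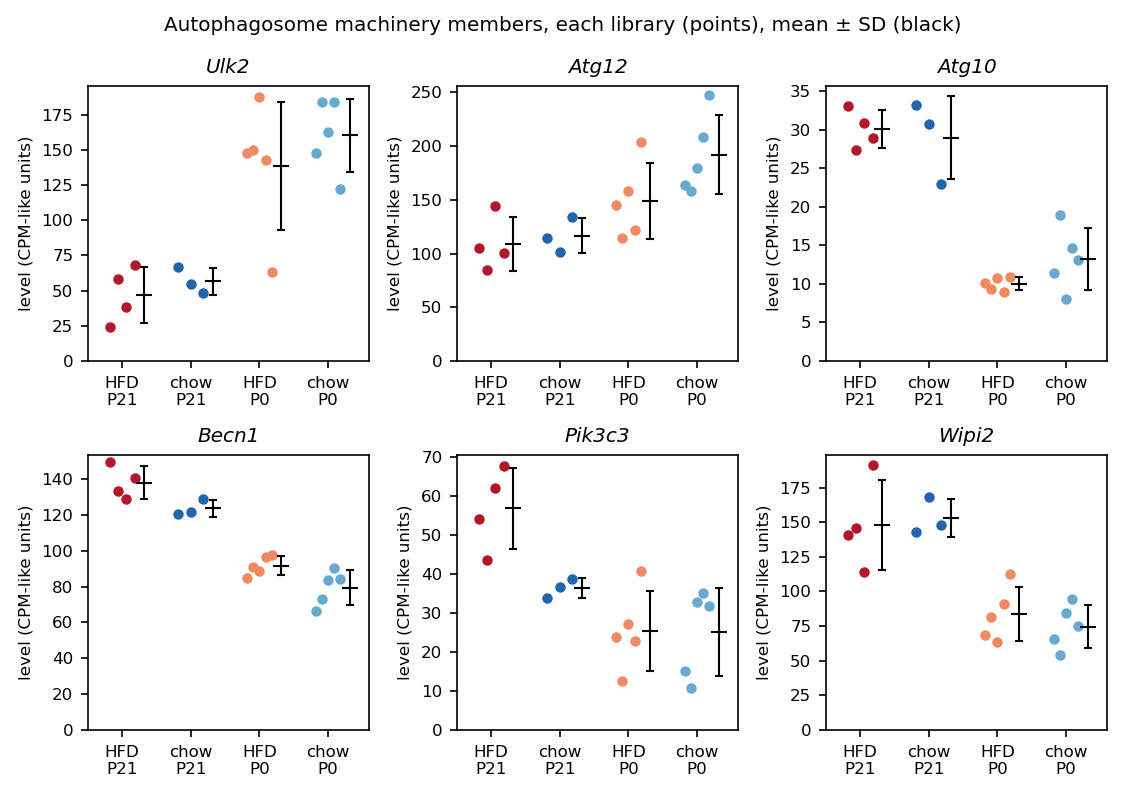
Level in scaled CPM-like units of 6 genes of the autophagosome machinery in each library, by group, with the mean ± SD in black. Ulk2 and Atg12 are lower at P21 than at P0 in group means under both diets, and Atg10, Becn1 and Wipi2 are higher at P21 in every library, while for Pik3c3 the ages are apart in HFD offspring and overlap in chow offspring.

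The diet by age interaction tested whether the change with age differed between HFD and chow offspring. Of the 39 genes 0 passed in limma, beside 0.0266% of 15037 genes, and 0 had an unadjusted p under 0.05, beside 15.2% of all genes. A gene that passed under one diet only is therefore not shown to differ between diets. The smallest adjusted p among the 39 was that of Gabarapl2, at 0.401 ± 0.21 (SE, adjusted p = 0.356).

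At P0 the libraries of one diet varied among themselves in the same genes. For 8 of the 39 genes, namely Pik3c3, Atg12, Atg4b, Gabarapl1, Sqstm1, Ctsb, Ctsd and Ctsl, the 4 highest P0 libraries were the 4 with the most Pomc, beside 1350 of 14086 genes tested (9.58%). Those libraries are HFD P0 replicate 5 and chow P0 replicates 3, 4 and 5, with Pomc of 1057, 657, 891 and 1308 units. The count is a description of the 10 P0 libraries, which share their diet groups, and was not tested. Of these 8 genes Gabarapl1, Sqstm1, Ctsb, Ctsd and Ctsl were higher in every P21 library than in those 4 libraries of their own diet.

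Lists of related genes, drawn up by function but with earlier results of these data known, place the 39 genes in their pathway. Of lysosomal hydrolases and their cofactors, 29 of 39 rose and 4 fell in HFD offspring, and 23 rose and 1 fell in chow offspring. As shares, 74.4% rose and 10.3% fell in HFD offspring, beside 24.7% and 26.2% of all genes tested. In chow offspring 59% rose and 2.6% fell, beside 18.3% and 17.7% of all genes tested. Gaa, the acid alpha-glucosidase that degrades glycogen, averaged 3313 ± 645 units in HFD P21 against 321 ± 208 in HFD P0, and 2307 ± 687 in chow P21 against 379.9 ± 149 in chow P0 (SD, n = 4, 5, 3 and 5). Its log2 difference was 3.52 ± 0.305 (SE, adjusted p = 8.19e-07) in HFD and 2.65 ± 0.32 (SE, adjusted p = 5.29e-05) in chow offspring. Others in HFD offspring were Asah1, acid ceramidase, at 1.52, Ctsz, a carboxypeptidase, at 2.11, and Hexa, a hexosaminidase subunit, at 1.56. Those in chow offspring were Ppt1, which removes palmitate from proteins, at 1.21, Ctso at 1.93 and Arsb, a sulfatase, at 1.42. The median of the list was 1.05 in HFD and 0.71 in chow offspring, beside -0.05 and -0.01 over all genes tested.

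The vacuolar ATPase, the proton pump that acidifies the lysosome, had 14 of 17 tested subunits higher in HFD offspring and 10 of 17 in chow offspring, with none lower. The shares higher were 82.4% in HFD and 58.8% in chow offspring. Over all genes tested, 24.7% rose and 26.2% fell in HFD offspring, and 18.3% rose and 17.7% fell in chow offspring. The subunit with the smallest p in HFD offspring was Atp6v1c1, at 583 ± 80.3 units in P21 against 164 ± 52.4 in P0 (SD, n = 4 and 5) and a log2 difference of 1.87 ± 0.1997 (SE, adjusted p = 5.24e-06). In chow offspring Atp6v1c1 had 1.42 ± 0.23 (SE, adjusted p = 3.49e-04). Atp6v1g2, Atp6v1d and Atp6v1e1 rose under both diets as well, by 1.1998, 1.39 and 1.29 in HFD, and by 1.16, 0.92 and 1.07 in chow offspring. Of lysosomal membrane and sorting proteins, 17 of 26 rose and 1 fell in HFD offspring, and 14 of 27 rose and 1 fell in chow offspring. As shares, 65.4% rose and 3.8% fell in HFD, and 51.9% rose and 3.7% fell in chow offspring. M6pr, the mannose 6-phosphate receptor that carries hydrolases to the lysosome, led under both diets, at 2.09 ± 0.15 (SE, adjusted p = 2.08e-07) in HFD and 1.75 ± 0.15 (SE, adjusted p = 4.02e-06) in chow offspring. Laptm4b rose by 1.92 in HFD and 1.62 in chow offspring, and the lipid transporter Abca2 by 1.56 in HFD and 1.68 in chow. Cd63, a tetraspanin, rose by 0.95 in HFD, and Ostm1, a partner of the chloride transporter Clcn7, by 1.0004 in chow offspring.

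The upstream lists moved both ways. Of 29 further autophagy genes, 11 rose and 6 fell in HFD offspring, and 11 rose and 3 fell in chow offspring. As shares, 37.9% rose and 20.7% fell in HFD offspring, beside 24.7% and 26.2% of all genes tested. In chow offspring 37.9% rose and 10.3% fell, beside 18.3% and 17.7% of all genes tested. Fundc1, a receptor for mitochondria, rose by 1.59 ± 0.15 (SE, adjusted p = 1.90e-06) in HFD and 1.15 ± 0.15 (SE, adjusted p = 1.07e-04) in chow offspring. Sh3glb1, the Bif-1 protein that binds beclin 1 through Uvrag, fell, with log2 differences of -1.999 ± 0.18 (SE, adjusted p = 1.34e-06) in HFD and -1.22 ± 0.15 (SE, adjusted p = 5.49e-05) in chow offspring. Stx17, a fusion protein of autophagosomes, had -1.53 and Atg9b 1.49 in HFD offspring, while Pink1, a sensor of damaged mitochondria, had 0.96 and Bnip3 0.83 in chow offspring. These 4 passed.

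Of 29 genes of nutrient sensing by mTORC1 and AMPK, 7 rose and 6 fell in HFD offspring, and 7 rose and 3 fell in chow offspring. As shares, 24.1% rose and 20.7% fell in HFD offspring, beside 24.7% and 26.2% of all genes tested. The HFD shares were thus no higher than those of all genes. In chow offspring 24.1% rose and 10.3% fell, beside 18.3% and 17.7% of all genes tested. Deptor, an inhibitor bound to mTOR, averaged 45.2 ± 7.12 units in HFD P21 against 7.44 ± 4.94 in HFD P0, and 42.5 ± 3.28 in chow P21 against 7.15 ± 2.52 in chow P0 (SD, n = 4, 5, 3 and 5). Its log2 difference was 2.62 ± 0.35 (SE, adjusted p = 3.74e-05) in HFD and 2.48 ± 0.303 (SE, adjusted p = 5.21e-05) in chow offspring. Fnip2, a partner of folliculin, and Prkaa2, a catalytic subunit of AMPK, fell in HFD offspring, with log2 differences of -2.02 and -1.32. Nprl2, of the GATOR1 complex, rose by 1.11 in HFD and 0.94 in chow offspring, and Flcn and Rragc rose in chow offspring by 0.78 and 0.902.

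Markers of other cells moved with age beside these genes. For their counts, 24.7% of all genes tested rose and 26.2% fell in HFD, and 18.3% rose and 17.7% fell in chow offspring. Of 14 oligodendrocyte markers 11 rose and 1 fell in HFD offspring, and 12 rose in chow offspring, with sums of 4109 to 7580 units in HFD P21, 8443 to 18889 in chow P21, 337 to 464 in HFD P0 and 439 to 1070 in chow P0. Opalin, a marker of myelinating oligodendrocytes, averaged 0.046 units in HFD P0 and 0.894 in chow P0. Of 10 astrocyte markers 7 rose and 1 fell in HFD and 8 rose in chow offspring, with sums of 1308 to 2252 units in HFD P21, 2431 to 3835 in chow P21, 695 to 869 in HFD P0 and 677 to 1022 in chow P0. Of 14 microglia markers 5 rose in HFD and 10 in chow offspring, with sums of 268 to 397 units in HFD P21, 429 to 760 in chow P21, 187 to 254 in HFD P0 and 182 to 269 in chow P0. Ctss is among both these and the hydrolases. Of 10 POMC-neuron markers 8 rose in HFD and 5 in chow offspring, and all 5 immature-neuron markers fell under both diets. Of 12 endothelial and mural markers 1 rose and 7 fell in HFD and 2 rose and 1 fell in chow offspring. As shares, 8.3% rose and 58.3% fell in HFD, and 16.7% rose and 8.3% fell in chow offspring. Of 6 fibroblast and meningeal markers 5 fell in HFD and 3 in chow offspring, and of 6 choroid plexus and ependymal markers 4 fell in HFD, while 1 rose and 1 fell in chow offspring. Both erythroid markers rose under both diets. Of the anterior pituitary markers Cga rose, by 3.70 in HFD and 3.37 in chow offspring, with group means of 22.3 units in HFD P21, 14.9 in chow P21, 0.636 in HFD P0 and 0.58 in chow P0. Of 8 general neuron markers 2 rose and 3 fell in HFD, and 2 rose and 4 fell in chow offspring. Here 25% rose and 37.5% fell in HFD, and 25% rose and 50% fell in chow offspring. The part of these cells in the rises was not tested, and in RNA from many cells fewer cells of a type cannot be told apart from less RNA per cell.

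At weaning the question was how the genes differed with the dam's diet. None of the 39 genes passed, beside 0.178% of 14070 genes, and 4 had an unadjusted p under 0.05, beside 17% of all genes. The libraries of the 2 diets did not overlap for 6 genes, all higher in HFD, beside 8.34% of all genes higher and 7.78% lower. These were Atg14, Becn1, Ctsb, Ctsd, Pik3c3 and Sqstm1. The median difference of the 39 genes was -0.02, the same as that of all genes tested, and 18 of 39 were above 0.

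Pik3c3 measured 54.1, 43.6, 61.9 and 67.6 units in HFD P21, against 33.8, 36.7 and 38.7 in chow P21. Every HFD library was above every chow library, and the log2 difference was 0.61 ± 0.19 (SE, adjusted p = 0.146). Sqstm1 measured 1618, 1629, 1489 and 1628 units in HFD P21, against 1321, 1449.9 and 1127 in chow P21. Here too the groups were apart, with the lowest HFD library just above the highest chow library, and the log2 difference was 0.299 ± 0.13 (SE, adjusted p = 0.273). Ctsb differed by 0.21 ± 0.12 (SE, adjusted p = 0.379), Ctsd by 0.16 ± 0.11 (SE, adjusted p = 0.494), Becn1 by 0.16 ± 0.13 (SE, adjusted p = 0.568) and Atg14 by 0.29 ± 0.18 (SE, adjusted p = 0.442), each with no overlap. Atg4b, with overlapping groups, differed by 0.41 ± 0.15 (SE, adjusted p = 0.213). Tfeb measured 4.74, 8.49, 5.05 and 4.72 units in HFD P21, against 7.53, 15.6 and 25.9 in chow P21. One HFD library lay above the lowest chow library, and the others lay below all chow libraries. The log2 difference of Tfeb was -1.25 ± 0.38 (SE, adjusted p = 0.148), the largest in size of the 39 at this age. Lamp1 had -0.497 ± 0.37 (SE, adjusted p = 0.5301) over all 7 libraries and -0.043 (adjusted p = 0.9296) without HFD P21 replicate 1.

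Markers of glia were lower in HFD than in chow offspring at P21 in their medians, at -0.84 for 14 microglia, -0.85 for 10 astrocyte and -1.09 for 14 oligodendrocyte markers. Of these markers 1 passed, Gjb6 of the astrocyte list, and the sums given above did not overlap between diets in any of the 3 lists. The sum of POMC-neuron markers was 12820 to 15400 units in HFD P21 and 8305 to 16550 in chow P21. Of its 10 markers 8 were above 0, with a median of 0.64, and 1 passed, the peptide gene Cartpt, at 2275 ± 359 units in HFD P21 and 629.5 ± 223 in chow P21 (SD, n = 4 and 3). The medians of the endothelial, fibroblast and choroid plexus lists were -0.96, -0.62 and -0.63, and none of these markers passed. The part of these differences in the values of Tfeb or of the 6 genes was not tested.

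**Figure D5:**
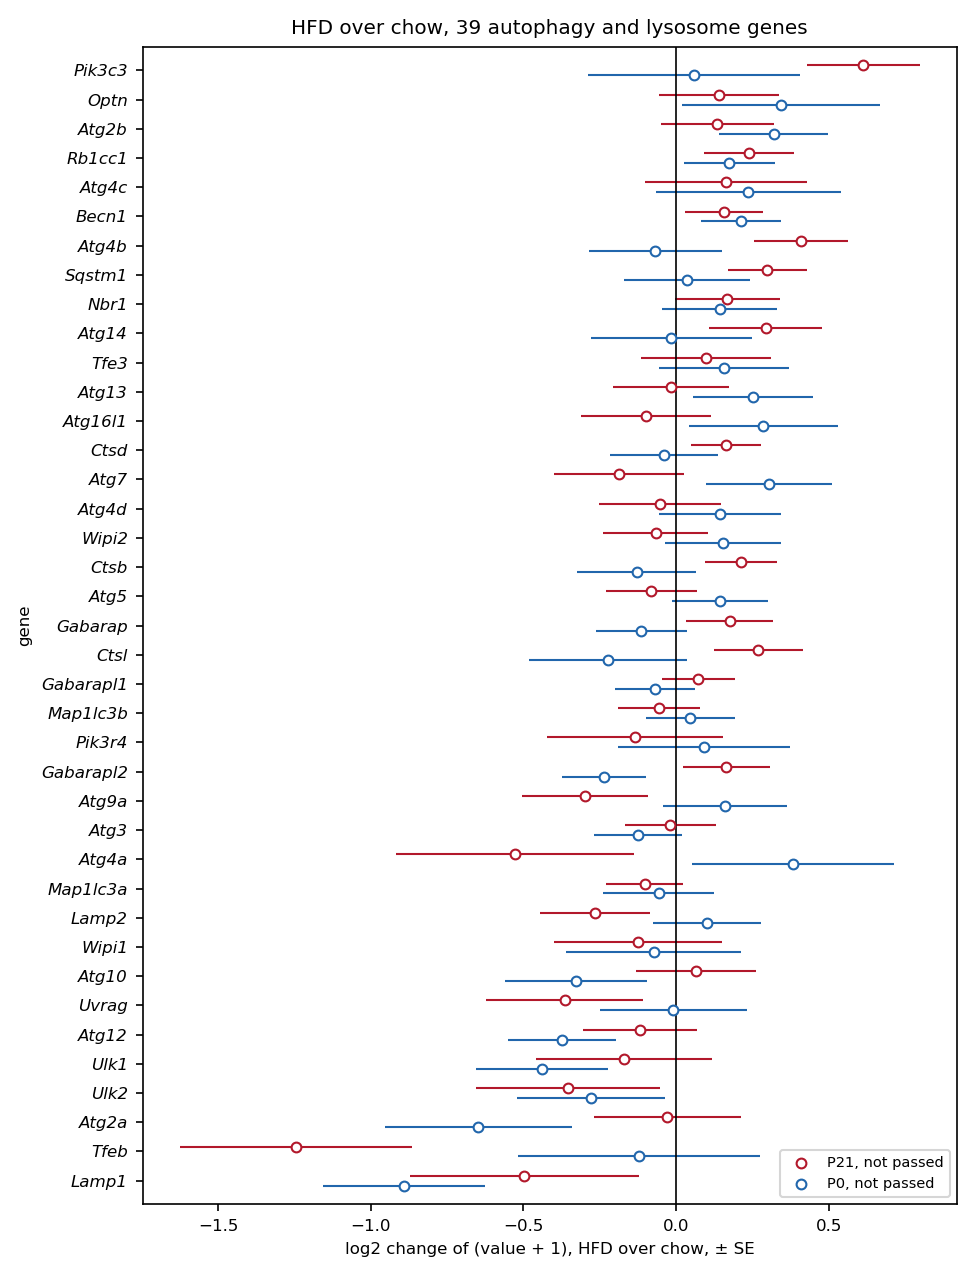
Log2 difference of value + 1 between HFD and chow offspring (HFD over chow) for each of the 39 genes, with bars of ± 1 SE; red points are P21 and blue points P0. All points are open because none passed limma's test at an adjusted p of 0.05; Lamp1 lies lowest at P0 (-0.89) and Tfeb lowest at P21 (-1.25).

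Of the related lists, 1 gene passed between the diets at P21. Ctsz averaged 171 ± 9.05 units in HFD P21 and 82.4 ± 10.8 in chow P21 (SD, n = 4 and 3), with no overlap, and rose by 1.05 ± 0.14 (SE, adjusted p = 0.0157) in limma. Gm2a, a hydrolase cofactor and the activator of ganglioside breakdown, did not pass, at -0.98 ± 0.17 (SE, adjusted p = 0.0502). Among further autophagy genes the smallest p belonged to Pink1, at -0.63 ± 0.16 (SE, adjusted p = 0.107), and Sh3glb1, at -0.68 ± 0.18 (SE, adjusted p = 0.112). In the nutrient-sensing list Stk11, the kinase LKB1, had -0.8999 ± 0.32 (SE, adjusted p = 0.192) and Sesn2, a sestrin, -0.66 ± 0.28 (SE, adjusted p = 0.255). The vacuolar ATPase subunits Atp6v1h and Atp6v1b2 had 0.45 ± 0.15 (SE, adjusted p = 0.168) and 0.38 ± 0.12 (SE, adjusted p = 0.172). Among membrane proteins Cd63 had 0.34 ± 0.13 (SE, adjusted p = 0.229) and Laptm5 -0.93 ± 0.38 (SE, adjusted p = 0.248). The regulators Foxo1 and Zkscan3 had -0.68 ± 0.399 (SE, adjusted p = 0.413) and -0.39 ± 0.24 (SE, adjusted p = 0.44).

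At birth the maternal diets gave the same count. None of the 39 genes passed, beside 0.291% of 14086 genes, and 1 had an unadjusted p under 0.05, beside 9.28%. That gene, Lamp1, was also the only one whose groups did not overlap, beside 0.738% of genes higher and 1.71% lower. Lamp1 measured 297, 302, 360.2, 319.6 and 115 units in HFD P0, against 418, 379.8, 479.9, 579 and 596 in chow P0. All 5 HFD libraries were below all 5 chow libraries, and HFD P0 replicate 5 was the lowest by far. The log2 difference of Lamp1 was -0.89 ± 0.27 (SE, adjusted p = 0.243), and -0.598 (adjusted p = 0.0775) without that library. The median difference of the 39 genes was 0.04, beside -0.0024 for all genes tested, and 20 of 39 were above 0. The largest differences after Lamp1 were those of Atg2a, at -0.65 ± 0.31 (SE, adjusted p = 0.543), and Ulk1, at -0.44 ± 0.22 (SE, adjusted p = 0.566).

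In the related lists 0 genes passed at P0. Outside the hydrolases, the smallest p in each list belonged to Sort1 (-0.54 ± 0.16 (SE, adjusted p = 0.2302)) among sorting proteins, Atp6v1d (-0.21 ± 0.15 (SE, adjusted p = 0.716)) in the proton pump, Stx17 (0.38 ± 0.18 (SE, adjusted p = 0.539)) among further autophagy genes, Tsc1 (0.505 ± 0.18 (SE, adjusted p = 0.363)) in nutrient sensing and Foxo1 (-0.72 ± 0.204 (SE, adjusted p = 0.219)) among the regulators. The hydrolases, the sorting proteins and the proton pump lay mostly below 0, in 29 of 39, 20 of 26 and 15 of 17 genes. Their medians were -0.13, -0.11 and -0.11, and all 4 tested regulators lay below 0. Further autophagy and nutrient-sensing genes lay mostly above 0, in 21 of 29 genes each, with medians of 0.12 and 0.13. Over all genes tested, 49.6% lay above 0, with a median of -0.0024. The POMC-neuron markers had a median of -0.54 in the same comparison, with none of 10 passed, and summed to 1666 to 3916 units in HFD P0 and 1618 to 3975 in chow P0. Their part in those medians was not tested.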

How the data were processed

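RNA bound to HA-tagged ribosomes of the mediobasal hypothalamus was sequenced in 17 libraries as single reads of 50 bases, per the labels' protocols. Tools listed in the submitters' processing notes are edgeR, HTSeq 0.6.1, Picard 1.80, TopHat2 2.0.13 and FastQC, and the build listed is mm10. Their settings, the strand option and any gene filter are not given in these sources. The authors deposited 1 table of normalized signal with 2 decimals. From the values, each column is whole reads divided by an effective library size: at least 99.98% of values lay at a whole read within rounding, against 22.2% to 37.03% at random. Column sums were 0.908 to 1.105 M (mega). The value of 3 reads, the limit that a value of 0 allows, was 0.0826 to 0.138 units and covers counting error only. The table's 15 empty columns were not used.

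In R 4.3.3, limma 3.58.1 was run per comparison over all tested genes on log2 of the value plus 1, with an intensity trend and the non-robust prior, two-sided, with Benjamini-Hochberg adjustment at 0.05. Genes entered a comparison if the number of libraries above 1 unit reached the size of its smaller group. The 4 pairwise comparisons used their own libraries and the interaction used all 17, without covariates. A count test with edgeR had been planned for whole counts and was run, in version 4.0.16, only on reads recovered in 6 libraries. Values of the other libraries lay at whole reads within rounding as well, and edgeR was not run on them. The fits were tested on simulated data. Alternatives were other pseudocounts, no filter, rescaled columns, a replicate block, all groups in 1 fit and leaving out libraries.

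The 40 genes, the related lists and the markers were chosen with earlier results of these data known. All found genes are named. Of each related list at most 4 genes that passed, with the smallest p, are named per comparison, or else 2. Symbols were matched to GENCODE M21 on GRCm38, the assembly of mm10, for coordinates, exon lengths and shared exonic bases, which were examined for the 39 genes only. Of the 39 genes, 15 share exonic bases with another gene and 9 share over 10%. Promoter letters came from RefSeq. Results of a few genes of the related lists are not reported here.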

Additional observations from a re-analysis of the deposited data

Results flagged for a closer look

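In groups of 4 or 5 libraries, 10 of 117 gene and group pairs (8.55%) had 1 library far from the others. The cutoff would flag about 1 in 20 independent groups with normal spread. The genes share their libraries, so the pairs are not independent and that rate is no test of the count. Of the 10 flagged pairs, 7 were in HFD P0 replicate 5, the HFD P0 library with the most Pomc. In that library Pik3r4 was at 43.21 units (the other HFD P0 libraries at 17.4 to 22.8), Atg4b at 136.31 (69.0 to 77.8) and Sqstm1 at 779.1 (445.7 to 500.3). Optn was at 54.21 (25.5 to 33.5), Tfe3 at 44 (25.2 to 28.9) and Ctsb at 676.05 (354.9 to 434.4). Lamp1 was low there, at 115.04 (296.9 to 360.2).

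Lamp1 was also low in HFD P21 replicate 1, at 183.07 units, with the other HFD P21 libraries at 610.5 to 677.6. Sqstm1 was lowest in HFD P21 replicate 3, at 1489.18 units, with the others at 1618 to 1629. Tfeb was highest in HFD P21 replicate 2, at 8.49 units, with the others at 4.72 to 5.05.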

How the results depend on the processing

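Under every alternative run in limma, 0 of the 39 genes passed between the diets at either age or in the interaction. With age, the count was 17 in HFD and 18 in chow offspring, and 15 to 22 in HFD and 16 to 22 in chow under other pseudocounts, no filter, rescaled columns and other designs. Leaving out 1 library gave 14 to 21 in HFD and 12 to 21 in chow offspring, and leaving out the libraries that stood apart, an alternative chosen after seeing the data, gave 21 in HFD and 14 in chow. Rescaling to equal sums moved the median of all genes with age in HFD offspring to -0.212 and that of the 39 genes to 0.297, and split the 15 calls into 12 higher and 3 lower. The replicate block gave 22 genes in each diet, 19 higher and 3 lower in HFD and 20 higher and 2 lower in chow offspring. The numbers do not pair libraries in the labels, and deviations of same-numbered libraries correlated at -0.173 to 0.492 at P0 and -0.0977 to 0.115 in the other comparisons. On the 5 P0 libraries with recovered reads limma and edgeR each passed 0 of the 39 genes between the diets. On the 4 chow libraries with recovered reads, chosen after seeing the data, limma passed 3 genes with age (Gabarapl1, Tfeb and Ulk2) and edgeR 2 (Gabarapl1 and Tfeb), where 1 library stands for P21 and is assumed to vary like the others, so fewer libraries went in. Of 3666 recomputed values, 74 lost the threshold and 34 gained it. A further 59 passed in neither fit and moved by at least the SE of the reported fit. Of the values that passed in the reported fit or in the alternative, 0 changed sign. Changes of sign among values that passed in neither fit were not counted. Of the 16 rises with age, 13 in HFD and 10 in chow offspring passed whichever single library was left out, as did the falls of Ulk2 in HFD and of Ulk2 and Atg12 in chow. Depth was at least 22.4 M reads per library, at which a value of 0 allows up to 0.138 units.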

Other observations

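Atg101, the one listed gene without a row by symbol, is a RefSeq synonym of a row named 9430023L20Rik, which was left out of all counts. That row had 0.295 ± 0.16 (SE, adjusted p = 0.148) with age in HFD and 0.31 ± 0.26 (SE, adjusted p = 0.379) in chow offspring, and 0.105 ± 0.15 (SE, adjusted p = 0.762) for HFD against chow at P21 and 0.12 ± 0.23 (SE, adjusted p = 0.911) at P0, in limma.

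The HFD libraries lowest in Lamp1 at each age were also low in 2 other genes, chosen here after their values were seen. Alyref, an RNA export adaptor, measured 10.1, 60.1, 36.1 and 60.4 units in HFD P21, 52.7, 28.2 and 22.4 in chow P21, 24.8, 29.8, 33.5, 22.3 and 9.1 in HFD P0 and 110.4, 92.6, 86.02, 109.7 and 123 in chow P0. HFD P21 replicate 1 and HFD P0 replicate 5 were the lowest of their groups in Lamp1, Alyref and Ulk2 alike. So was chow P21 replicate 3. In chow P0 the lowest library was replicate 2 for Lamp1, replicate 3 for Alyref and replicate 5 for Ulk2. How many of all genes share this pattern was not counted.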
